A study of Homo sapiens with 27 samples.

Results

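Transcription elongation kinases and factors were examined as 8 genes, CDK9, CCNT1, CCNT2, CDK12, CDK13, CCNK, SUPT5H and SUPT6H. They were chosen by name, and they are 8 of the 19522 genes that all 4 deposited count tables hold. The tables count reads from PAC-seq, which sequences only the 3′ ends of polyadenylated RNA, so that each read is taken to mark a poly(A) site. Reads in annotated 3′ UTRs, introns, coding exons (CDS) and a 10 kb region past the gene's end were counted apart. The libraries came from 3 established prostate cancer cell lines, hormone-sensitive LNCaP and hormone-insensitive LNCaP95 and 22Rv1. Each line expressed a control shRNA (CTRL sh) or 1 of 2 shRNAs that target CPSF1, named CPSF1 sh1 and CPSF1 sh2, and cells of every group, controls included, had been transduced with lentivirus, selected in puromycin and harvested 72 h after seeding. There were 3 biological replicates of each line and shRNA, 27 libraries in all. The control arm is a single shRNA in each line, and LNCaP95 cells were kept in a medium without phenol red, unlike the other lines, and selected at 1 rather than 2 µg/mL puromycin, so that line, medium and selection dose cannot be told apart.

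RNA polymerase II pauses soon after it starts a transcript. P-TEFb, the kinase CDK9 with cyclin T1 (CCNT1) or cyclin T2 (CCNT2), releases it by phosphorylating the polymerase tail and the DSIF subunit encoded by SUPT5H, while SUPT6H encodes a histone chaperone that travels with the elongating polymerase. CDK12 and CDK13 each pair with cyclin K (CCNK) and keep the polymerase tail phosphorylated through gene bodies, and loss of CDK12 is known for the use of intronic polyadenylation sites in long genes, DNA repair genes among them. CPSF1 is the large scaffold subunit of the complex that recognises the AAUAAA signal and directs cleavage of the nascent transcript.

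The annotated 3′ UTR ends of these genes differ in that signal, and 3 windows that hold one are shown because the recognition complex was the target of the knockdown. The last 50 bases before the annotated 3′ UTR end were searched on the gene's strand for 2 hexamers. The first, AATAAA, was found for CCNT1 and SUPT5H. The second, ATTAAA, was found without the first for CDK13. Neither was in the window of CDK9, CDK12, CCNK or SUPT6H. The CDK12 window ended at chr17:37707394, while the region counted as its introns runs on to chr17:37721160, an end that was not searched. Over all 19540 genes of the 3′ UTR table, 59.4% held the first, 13.5% held the second alone and 27.1% held neither. Each sequence is 30 bases of GRCh37 on the gene's strand, 5′ to 3′, ends at the annotated 3′ UTR end (SUPT5H: 1 base before it) and has the hexamer in capitals.
CCNT1, chr12:49082247-49082276, minus strand: ccatcccatcAATAAAtgttaatggtaaaa
SUPT5H, chr19:39967280-39967309, plus strand: tttcAATAAAaagaagctgtttggtctaaa
CDK13, chr7:40136704-40136733, plus strand: taaaaATTAAAtattttatataaaattgaa

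Libraries held 3452413 to 12425417 reads over the 4 tables, of which the 10 kb downstream table took 170330 to 728430. Levels are given as CPM (reads scaled to a common table size after TMM normalisation), log2 fold changes compare the 6 CPSF1 shRNA libraries of a line with its 3 controls, and p-values are from edgeR's quasi-likelihood test, adjusted by Benjamini-Hochberg over all genes tested and called at 0.05. CPSF1 3′ UTR reads fell in every line. The change was -1.19 in LNCaP (SE 0.168, adjusted p = 8.31e-05), while LNCaP95 gave -1.05 (SE 0.182, adjusted p = 3.01e-04) and 22Rv1 gave -0.73 (SE 0.143, adjusted p = 0.0164). Controls of CPSF1 stood at 184, 143 and 137 CPM in LNCaP, 98.1, 66.3 and 110.02 for LNCaP95 and 202, 134 and 145 in 22Rv1, and no knockdown library of a line reached its controls. As means over all libraries of a line, controls and knockdowns together, luminal epithelial markers were over 10 CPM for 9, 9 and 8 of 9 genes in LNCaP, LNCaP95 and 22Rv1. No basal marker of 3 passed that level in any line. Of 10 fibroblast, endothelial, leukocyte and neuroendocrine markers found, COL1A1 (12.3 and 32.8 CPM in LNCaP and LNCaP95), CD68 (12.2 in LNCaP95) and SYP (10.7 and 49.7 in LNCaP95 and 22Rv1) did.

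The 8 genes differed widely in where their polyadenylated reads lay. In controls CDK9, CCNT1 and CCNK had most reads in the 3′ UTR, at 57.7% to 75.2% of the gene's reads for CDK9, 78.4% to 84.6% for CCNT1 and 68.5% to 77.1% for CCNK as means of the 3 lines. CDK13 had most in introns, 61.9% to 68.2%, and only 7.48% to 9.51% in its 3′ UTR. CDK12 was spread over CDS (39.5% to 40.6%), introns (25.9% to 29.6%) and 3′ UTR (26.5% to 30.3%). The region counted as CDK12 introns runs to chr17:37721160, past the end of its 3′ UTR region at chr17:37707694. Its intron reads can therefore include reads that ended past that 3′ UTR. Part of the 10 kb region also lies inside the same gene in the Gencode annotation, 2353 bases (23.5%) for CDK12 and 2147 bases (21.5%) for CDK13. CCNT2 and SUPT5H also held large CDS shares, 38.7% to 40.4% and 31.2% to 44.7%. Whether CDS reads mark poly(A) sites or internal A-rich sequence was not tested. SUPT6H had 66.0% to 88.3% of its reads in the 10 kb downstream region, a set of reads described with the 10 kb results.

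**Figure D1:**
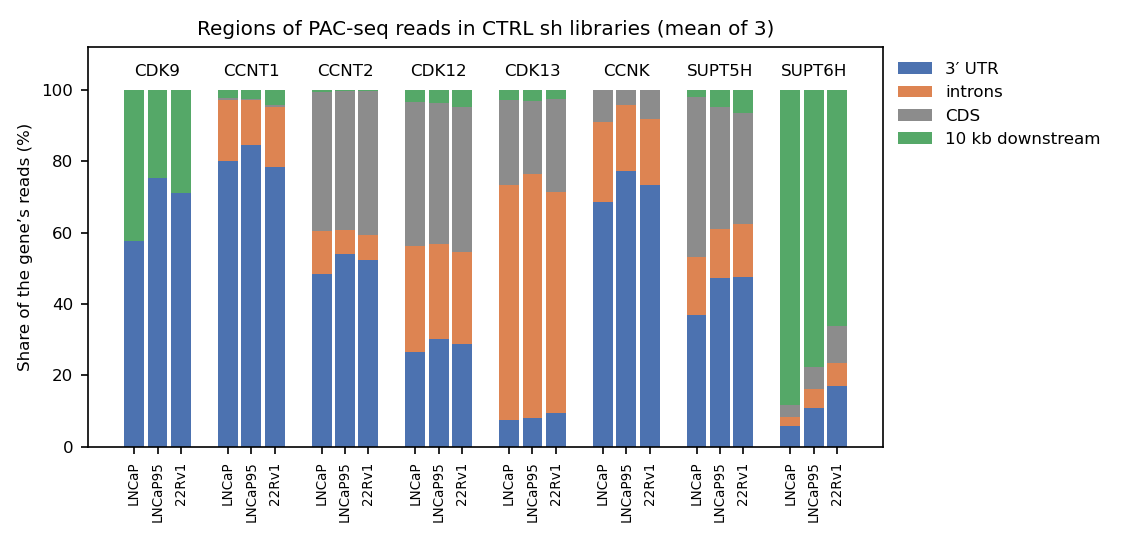
Share of each gene's reads, in percent, that fell in the 3′ UTR, introns, CDS and 10 kb downstream region in the control libraries of the 3 lines, as means of the 3 control libraries of a line. CDK13 is mostly intronic, CDK9 has only 3′ UTR and downstream reads, and SUPT6H is mostly downstream.

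CDK9 had no intron read and no CDS read in any of the 27 libraries, against 6877 reads in its 3′ UTR. A count of 0 allows up to 3 reads, 0.0436% of the 3′ UTR number, for counting error only. Of the 11711 genes over 2 CPM in the 3′ UTR table, 240 (2.05%) had no read in both regions, and of the 3232 genes at least as high as CDK9 38 (1.18%) had none. CDK9's introns span only 2413 bases. Per kb of intron, control levels were highest for CCNT1, at 1.93, 1.92 and 2.39 CPM per kb in LNCaP, LNCaP95 and 22Rv1. CDK13 had 1.26, 1.39 and 1.73, SUPT6H had 1.42, 1.61 and 0.95, and CCNK, CCNT2, CDK12 and SUPT5H lay between 0.323 and 0.907. The order of CDK13 and SUPT6H changed between lines, and no test was made between genes.

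Control cells of the 3 lines differed in several of these genes before any knockdown. In 3′ UTRs 4 of 24 member comparisons between lines were called, 2 in each direction, where 39.3%, 47.2% and 54.6% of all genes were called for LNCaP95 against LNCaP, 22Rv1 against LNCaP and 22Rv1 against LNCaP95. All 4 concerned CDK9 and CDK13 in 22Rv1. CDK9 3′ UTR levels were 69.9, 95.4 and 86.8 CPM in LNCaP controls, 81.1, 74.9 and 95.4 in LNCaP95 and 48.6, 38.7 and 46.0 in 22Rv1. Every 22Rv1 control was below every control of the other lines, and the difference was -0.92 against LNCaP (SE 0.179, adjusted p = 4.32e-04) and -0.91 against LNCaP95 (SE 0.178, adjusted p = 3.5e-04), while LNCaP95 and LNCaP differed by -0.01 (adjusted p = 0.972).

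CDK13 went the other way, with 3′ UTR levels of 9.57, 9.67 and 9.99 CPM in LNCaP controls, 6.71, 11.6 and 11.5 in LNCaP95 and 11.7, 16.9 and 20.7 in 22Rv1. All 22Rv1 controls lay above those of the other lines, the lowest only just. The differences were 0.80 against LNCaP (SE 0.299, adjusted p = 0.0357) and 0.78 against LNCaP95 (SE 0.293, adjusted p = 0.0315), but the calls rested on single libraries. Against LNCaP the value was 0.81 without the second 22Rv1 control (adjusted p = 0.0724), 0.60 without the third (adjusted p = 0.194) and 0.79 to 0.81 without any 1 LNCaP control (adjusted p = 0.083 to 0.0867). Against LNCaP95 it was 0.79 and 0.58 without the second or the third 22Rv1 control and 0.56 without the first LNCaP95 control (adjusted p = 0.0644, 0.181 and 0.138). The call against LNCaP95 was also lost with library sizes summed over the 4 tables (0.73, adjusted p = 0.057) and without TMM factors (0.69, adjusted p = 0.0673). CDK13 intron levels were 181, 181 and 168 CPM in LNCaP and 259, 246 and 225 in 22Rv1, again without overlap (0.47, SE 0.156, adjusted p = 0.0186), a call lost without the third LNCaP control (0.43, adjusted p = 0.0931) and with summed library sizes. LNCaP95 controls, at 173, 217 and 196, overlapped those of LNCaP.

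**Figure D2:**
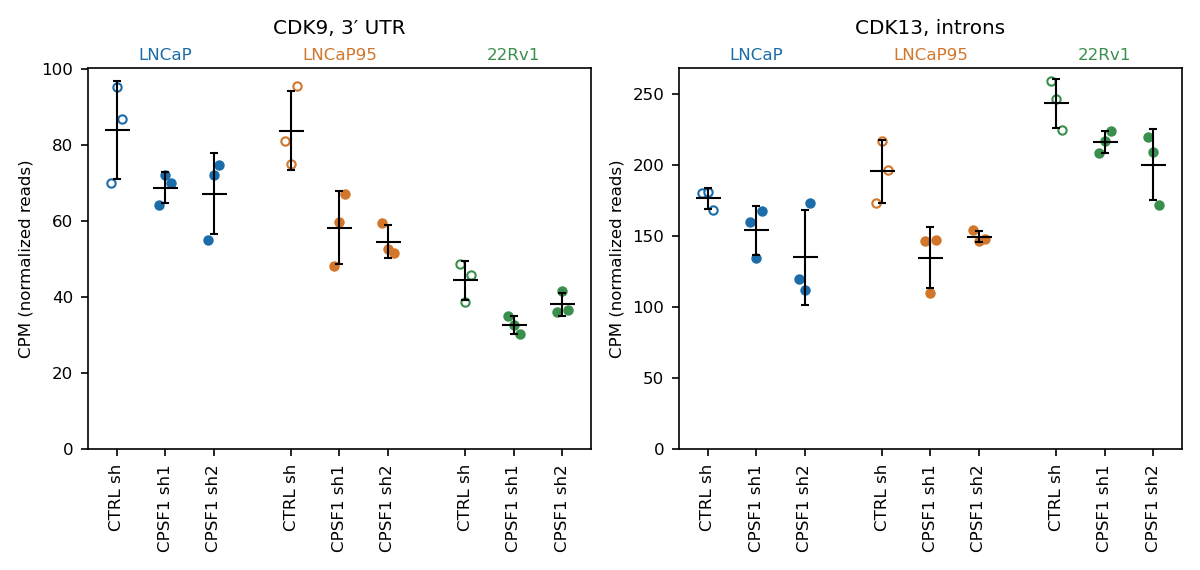
CDK9 3′ UTR level and CDK13 intron level, in CPM, of each of the 27 libraries by line and shRNA, with group means and SD bars. CDK9 is lowest in 22Rv1 and CDK13 highest there, and the LNCaP95 knockdown libraries lie below their controls for both.

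Introns gave 5 called differences between control lines among 21 tested, 1 higher and 4 lower, against 24.2%, 31% and 38.3% of all genes in the same order of lines. Besides CDK13, CCNT2 introns were at 23.8, 28.3 and 23.9 CPM in LNCaP controls, 14.3, 19.4 and 5.47 in LNCaP95 and 5.68, 9.17 and 16.6 in 22Rv1. The difference was -1.17 for 22Rv1 against LNCaP (adjusted p = 0.0199) and -0.98 for LNCaP95 against LNCaP (adjusted p = 0.0471). The first call was lost without the first or second 22Rv1 control (-0.91 and -1.06, adjusted p = 0.0839 and 0.0735) or the second LNCaP control (-1.09, adjusted p = 0.0719). The other was lost without any 1 LNCaP control or the first or the third LNCaP95 control, with values of -0.60 to -1.07 (adjusted p = 0.0714 to 0.247). That call was also lost with DESeq2 (-0.97, adjusted p = 0.0765) and without TMM factors (-0.67, adjusted p = 0.176). CDK12 introns were lower in 22Rv1 than in LNCaP (-0.63, SE 0.182, adjusted p = 0.0076), a call lost without TMM factors (-0.40, adjusted p = 0.188). SUPT6H introns were lower in 22Rv1 than in LNCaP95 (-0.76, SE 0.229, adjusted p = 0.00822), a call lost with summed library sizes (-0.68, adjusted p = 0.0796).

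The downstream table gave 6 called differences between control lines of 21 tested, all lower in the line named first, with 5.79%, 10.7% and 15.3% of all genes called. They belonged to CDK9 and SUPT6H, each in every pair of lines. CDK9 downstream levels were 822, 859.9 and 811 CPM in LNCaP controls, 573, 388 and 409.8 in LNCaP95 and 220.3, 158 and 221 in 22Rv1. These groups did not overlap, and 22Rv1 differed from LNCaP by -1.95 (adjusted p = 3.43e-11) and from LNCaP95 by -1.06 (adjusted p = 0.00111), the latter not called with summed library sizes (-0.70, adjusted p = 0.0556). LNCaP95 differed from LNCaP by -0.89 (adjusted p = 0.0108), a call lost without the second or the third control of either line (-0.77 to -0.91, adjusted p = 0.0506 to 0.0995) and without TMM factors (-0.38, adjusted p = 0.404). The CDK9 downstream region shares 6276 bases (64.1% of it) with introns of FPGS, the next gene on the same strand, which encodes folylpolyglutamate synthase. Across the 27 libraries its level correlated with FPGS 3′ UTR level at r = 0.93, with CDK9's own 3′ UTR level at r = 0.79 and with the SUPT6H downstream level at r = 0.95. Which gene's transcripts these reads ended cannot be told apart.

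After knockdown of CPSF1 few member comparisons were called in the 3′ UTR, introns and CDS, and most of those called were downstream. In these 3 regions knockdown and control libraries did not overlap for CDK9 in the LNCaP95 3′ UTR, CDK12 in LNCaP95 introns, CDK13 in LNCaP95 and 22Rv1 introns and SUPT6H in 22Rv1 CDS. These were out of 24 member-by-line pairs in each region. The share of all genes without overlap was not counted, so the list does not set the members apart from other genes. Of the member comparisons 1 of 24 was called in the 3′ UTR, 1 of 21 in introns and 0 of 19 in CDS, where 1 member had an unadjusted p under 0.05 in edgeR and DESeq2 called 0. All genes were called at 18.3%, 30.5% and 1.47% in the 3′ UTR for LNCaP, LNCaP95 and 22Rv1, at 14.3%, 23.8% and 4.37% in introns and at 7.1%, 12.5% and 1.01% in CDS. In the 10 kb region 7 of 21 member comparisons were called, 4 higher and 3 lower, where 14.7%, 27.7% and 10% of all genes were called. All genes were called higher at 9.52%, 17.6% and 7.25% and lower at 5.2%, 10.1% and 2.77%. The 7 include SUPT6H in every line, whose downstream reads cannot be assigned to that gene, and SUPT5H in LNCaP95 on few reads. Leaving out the SUPT6H region, a choice made after seeing the data, gave 4 calls. Scaling by reads summed over the 4 tables gave 6 called higher and 0 lower. The 7 calls therefore do not show an excess over all genes. Members that could not be tested were CDK9 in introns and CDS, CCNK downstream, with 8 reads in 27 libraries, and CCNT1 CDS in LNCaP and LNCaP95. The median of all genes downstream was itself shifted by 0.13, 0.22 and 0.19, and by 0.62, 1.11 and 0.73 where libraries were scaled by their reads summed over the 4 tables.

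**Figure D3:**
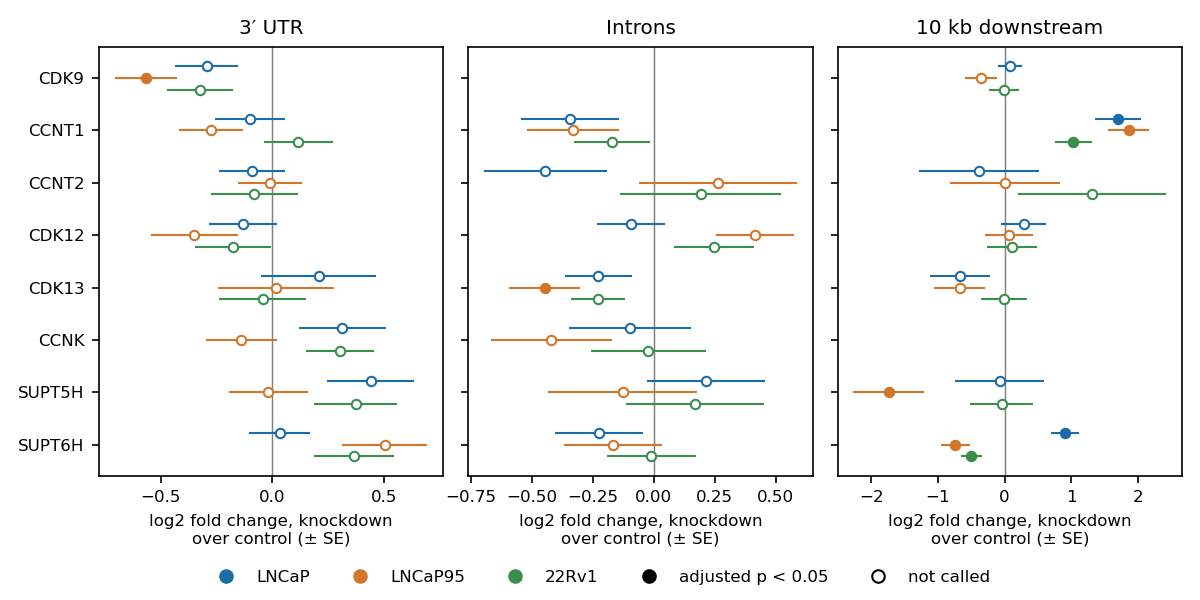
Log2 fold change of the 8 genes after CPSF1 knockdown, with standard errors, in the 3′ UTR, introns and 10 kb downstream region of each line, with calls at adjusted p under 0.05 marked. Most values lie near 0. Farther from 0 downstream are CCNT1, higher in all lines, SUPT6H, mixed, and SUPT5H in LNCaP95 (-1.74, called). CCNT2 in 22Rv1 (1.31) and CDK13 in LNCaP and LNCaP95 (both -0.67) are also farther out downstream but were not called.

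Within P-TEFb, the kinase gene CDK9 fell in LNCaP95. Its 3′ UTR levels there were 81.1, 74.9 and 95.4 CPM in controls, 48.1, 59.7 and 67.0 with sh1 and 59.6, 52.6 and 51.5 with sh2. All 6 knockdown libraries were below all 3 controls, with a log2 fold change of -0.57 (SE 0.139, adjusted p = 0.00481). LNCaP gave 64.2, 72.1 and 70.1 CPM with sh1 and 54.97, 72.0 and 74.7 with sh2, which overlapped the controls (-0.30, adjusted p = 0.163). In 22Rv1 sh1 gave 35.1, 32.7 and 30.4 CPM and sh2 36.1, 41.7 and 36.7 (-0.33, adjusted p = 0.322). With sh1 alone the LNCaP95 value was -0.51 (adjusted p = 0.0689). The CDK9 downstream region gave 0.08, -0.36 and -0.01, none called, whereas FPGS introns gave 0.75 (adjusted p = 5.05e-04), 0.66 (adjusted p = 0.00467) and 0.04 (adjusted p = 0.94).

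CCNT1, the main cyclin partner of CDK9, rose downstream of its gene in all 3 lines. In LNCaP its downstream region held 11, 14 and 8 reads in controls, 35, 33 and 51 with sh1 and 85, 25 and 63 with sh2. Scaled, these were 41.3, 44.6 and 28.6 CPM in controls against 108, 114 and 96.8 with sh1 and 205, 103 and 136 with sh2. No knockdown library reached down to the controls, and the fold change was 1.70 on the log2 scale (SE 0.345, adjusted p = 5.45e-05).
LNCaP95 controls had 62.0, 52.8 and 65.2 CPM, sh1 libraries 254, 256 and 198 and sh2 libraries 179, 219 and 265 (1.86, SE 0.309, adjusted p = 9e-07). In 22Rv1 controls had 52.4, 75.0 and 74.5 CPM, sh1 libraries 129, 85.9 and 131 and sh2 libraries 189.8, 185 and 153 (1.03, SE 0.281, adjusted p = 0.00679). The groups did not overlap in either line, and relative to the all-gene median the 3 values were 1.57, 1.64 and 0.84. With sh1 alone the 22Rv1 value was 0.78 (adjusted p = 0.2).

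The CCNT1 3′ UTR itself, whose annotated end follows an AATAAA, did not pass the test in any line. Its log2 fold changes were -0.10 (adjusted p = 0.703), -0.28 (adjusted p = 0.151) and 0.12 (adjusted p = 0.807), and those of its introns were -0.34, -0.33 and -0.17. The ratio of downstream to 3′ UTR reads, fitted as an interaction of the 2 regions, was higher in LNCaP (1.80, SE 0.412, adjusted p = 0.00348) and LNCaP95 (2.15, SE 0.346, adjusted p = 1.57e-05). In 22Rv1 the ratio was 0.85 (SE 0.344, adjusted p = 0.131). All genes were called for this ratio at 10.3%, 28% and 7.42%, and 4 of 21 member comparisons were called, the others being SUPT5H and SUPT6H in LNCaP95.
Introns of KANSL2, the next gene on that strand and a subunit of a histone acetyltransferase complex, cover 2541 bases (30%) of the region. KANSL2 introns gave 0.38, 0.23 and 0.52, none called, and the 2 levels correlated at r = 0.41 over 27 libraries. Their part in the CCNT1 value was not tested.

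**Figure D4:**
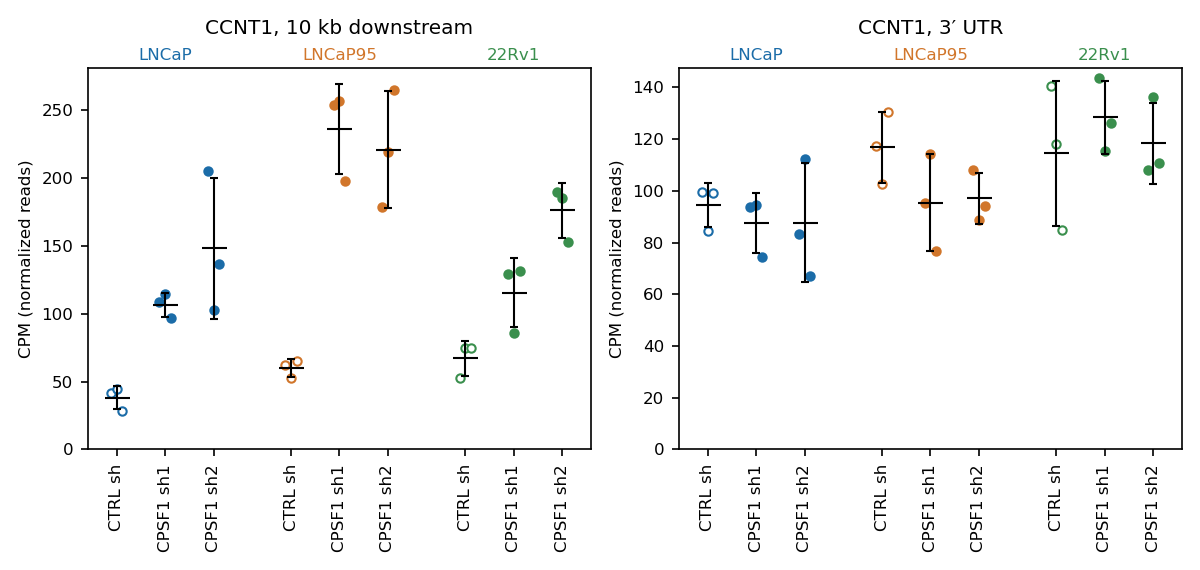
CCNT1 levels, in CPM, in the 10 kb downstream region and the 3′ UTR of each library by line and shRNA, with group means and SD bars. Downstream levels of all knockdown libraries lie above the controls of their line, from 85.9 CPM up in 22Rv1, while 3′ UTR levels overlap.

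CCNT2, the alternative cyclin, did not pass the test in any table or line. Its 3′ UTR values were -0.09, -0.01 and -0.08, each with an SE of 0.144 to 0.195. CDS gave -0.21, -0.32 and -0.10.

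Of CDK12, CDK13 and CCNK, CDK13 was the one with a called change in a region. Its introns, which hold most of its reads, were at 173, 217 and 196 CPM in LNCaP95 controls, 147, 109.8 and 148 with sh1 and 154, 146 and 148 with sh2. All knockdown libraries were below the controls (-0.45, SE 0.147, adjusted p = 0.026). LNCaP gave -0.23 (adjusted p = 0.298) and 22Rv1 -0.23 (adjusted p = 0.296), with the 22Rv1 knockdown libraries, at 172 to 224 CPM, below its controls at 225 to 259. The LNCaP95 call was lost with either shRNA alone, with 2 other scalings, and without the second (-0.36, adjusted p = 0.126) or the third control library (-0.44, adjusted p = 0.0799). Over all reads of a gene 2 of 24 member comparisons were called, and CDK13 fell in LNCaP (-0.31, SE 0.111, adjusted p = 0.0451), where 27.5% of all genes were called (34.3% in LNCaP95 and 7.57% in 22Rv1), and gave -0.31 (adjusted p = 0.0574) in LNCaP95. That LNCaP call was lost without any 1 of the 3 controls, any 1 of the 3 sh1 libraries or the first sh2 library, with values of -0.28 to -0.33 (adjusted p = 0.0511 to 0.11).

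CDK12 introns were higher in every LNCaP95 knockdown library than in its controls, without passing the test. They were at 69.0, 57.6 and 63.8 CPM in controls, 73.1, 75.1 and 90.6 with sh1 and 88.6, 98.5 and 77.8 with sh2. The fold change was 0.41 (SE 0.16, adjusted p = 0.0601). Because the intron region of CDK12 runs past its 3′ UTR, whether these reads ended in introns or past that UTR was not tested. The ratio of CDK12 intron to 3′ UTR reads was 0.79 (SE 0.269, adjusted p = 0.0524) in LNCaP95, and 0 of 21 member comparisons were called for this ratio, with 2 at an unadjusted p under 0.05, against 3.69%, 14.1% and 0.422% of all genes. LNCaP and 22Rv1 gave -0.09 and 0.25 for CDK12 introns. CDK12 3′ UTR values were -0.13, -0.35 and -0.18. CCNK gave 0.31, -0.14 and 0.30 in the 3′ UTR, none called.

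SUPT5H, the DSIF subunit that P-TEFb phosphorylates, fell downstream in LNCaP95 on few reads. Controls held 17, 4 and 16 reads there, sh1 libraries 6, 13 and 5 and sh2 libraries 2, 9 and 4. The groups overlapped, with 1 control at 4 reads, and the fold change was -1.74 (SE 0.527, adjusted p = 0.0078). LNCaP gave -0.08 and 22Rv1 -0.04. The call was lost with sh1 alone (-1.38, adjusted p = 0.136), without the first control library (-1.49, adjusted p = 0.0699), without the third (-1.54, adjusted p = 0.0538) and with summed library sizes (-0.87, adjusted p = 0.23). The ratio to its 3′ UTR reads was also called in LNCaP95 (-1.74, SE 0.599, adjusted p = 0.0277). That call was lost with summed library sizes (-0.73, adjusted p = 0.307), with sh1 alone (-1.21, adjusted p = 0.293), and without the first or the third control or the first or the third sh2 library (-1.45 to -1.61, adjusted p = 0.0587 to 0.134). Introns of TIMM50, a subunit of the mitochondrial import machinery, cover 4113 bases (54.4%) of the region. SUPT5H 3′ UTR values were 0.44 (adjusted p = 0.126), -0.02 and 0.37 (adjusted p = 0.379).

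SUPT6H had the most downstream reads of any member, and they were higher in LNCaP knockdown libraries and lower in those of the other lines, the latter depending on the scaling as given with the tests. In LNCaP they were at 10607, 9767 and 10941 CPM in controls, 16017, 15103 and 19372 with sh1 and 20197, 29748 and 18354 with sh2. In LNCaP95 they were at 5692, 3772 and 7786 CPM in controls, 2663, 3965 and 3549 with sh1 and 3786, 3413 and 4184 with sh2. In 22Rv1 they were at 1720.3, 1685 and 1746 CPM in controls, 1335, 1124 and 1018 with sh1 and 1292, 1459 and 1399.8 with sh2.
LNCaP and 22Rv1 groups did not overlap, while in LNCaP95 the lowest control lay within the knockdown range. The fold change was 0.90 in LNCaP (SE 0.214, adjusted p = 7.75e-04). It was -0.74 for LNCaP95 (SE 0.218, adjusted p = 0.00624) and -0.50 for 22Rv1 (SE 0.161, adjusted p = 0.0304), but with libraries scaled by reads summed over the 4 tables the last 2 turned to 0.19 (adjusted p = 0.463) and 0.01 (adjusted p = 0.968). Relative to the all-gene median they were -0.96 and -0.68, and -0.91 and -0.72 under that scaling. The LNCaP95 call was also lost without the third control (-0.45, adjusted p = 0.235) and without TMM factors (-0.39, adjusted p = 0.133). The 22Rv1 call was lost without the second or the third control, the second or the third sh1 library or the first sh2 library, at -0.44 to -0.50 (adjusted p = 0.057 to 0.101). It was also lost with sh2 alone (-0.31, adjusted p = 0.313), with sh1 alone (-0.56, adjusted p = 0.0853), without TMM factors (-0.23, adjusted p = 0.343) and without the mean filter (-0.47, adjusted p = 0.0631). Between controls, 22Rv1 differed from LNCaP by -2.50 (adjusted p = 1.66e-27) and from LNCaP95 by -1.61 (adjusted p = 3.1e-12), and LNCaP95 differed from LNCaP by -0.89 (adjusted p = 8.48e-04), the last not called without the second LNCaP95 control (-0.64, adjusted p = 0.102) or without TMM factors (-0.37, adjusted p = 0.234).

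SUPT6H downstream counts moved together with those of another gene, PLEKHA5, on chromosome 12. The SUPT6H region, chr17:27029997-27039996, held 76068 reads over the 27 libraries, which ranked 14 of 20266 genes, and 0.119% to 2.54% of the table in a library. The downstream region of PLEKHA5, which encodes a pleckstrin homology domain protein, gave 0.96 (adjusted p = 3.53e-04), -0.62 (adjusted p = 0.0225) and -0.46 (adjusted p = 0.0314) in LNCaP, LNCaP95 and 22Rv1. The ratio of SUPT6H to PLEKHA5 downstream reads stayed between 0.277 and 0.384 in all 27 libraries (median 0.334), and their levels correlated at r = 0.997.
Both regions hold a near copy of BCYRN1, a short noncoding RNA of 200 bases transcribed from chr2:47562454-47562653. In the SUPT6H region chr17:27035622-27035769 aligned to it over 149 bases at 96.6% identity, and in the PLEKHA5 region chr12:19537843-19537981 aligned over 139 bases at 97.8%. Exact runs were 92 and 119 bases, and these 2 were the only ones of 20252 downstream regions (0.00988%) with a run of 60 bases or more on the gene's strand. The 30 bases across the end of the SUPT6H run are shown because they are where the copies part, in an A-rich stretch. Capitals mark the 28 bases that both share, and both are GRCh37, plus strand, 5′ to 3′.
SUPT6H downstream region, chr17:27035740-27035769: CAGAAAAAGGAAAAAAAAAAAaAAAcGACA
BCYRN1, chr2:47562573-47562602: CAGAAAAAGGAAAAAAAAAAAcAAAaGACA

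From which of these loci the counted transcripts came cannot be told apart in gene totals. In its own 3′ UTR SUPT6H gave 0.03 in LNCaP (adjusted p = 0.899), and 0.50 in LNCaP95 (SE 0.191, adjusted p = 0.0528). The 22Rv1 value was 0.37 (adjusted p = 0.372), and CDS gave 0.31, 0.50 and 0.30, none called. LNCaP95 3′ UTR levels were 45.5, 52.0 and 31.7 CPM in controls, 48.7, 69.1 and 48.9 with sh1 and 84.4, 55.8 and 60.1 with sh2, with the highest control inside the knockdown range. All reads of SUPT6H together, most of them downstream, were called higher in LNCaP (1.38, adjusted p = 2.11e-04), where no other region of the gene was. The downstream to 3′ UTR ratio was lower in LNCaP95 (-1.19, adjusted p = 0.00861), a call lost without the third control (-0.74, adjusted p = 0.126), with summed library sizes (-0.17, adjusted p = 0.755) and with sh1 alone (-1.15, adjusted p = 0.0705).

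**Figure D5:**
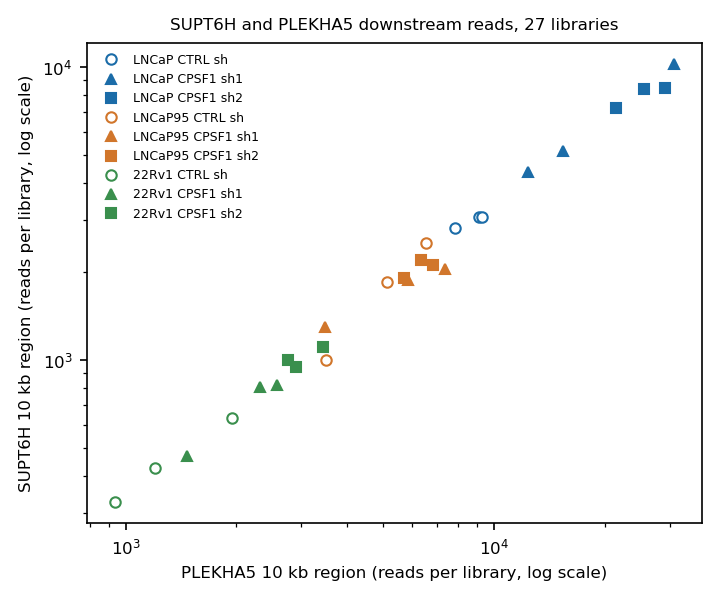
Downstream reads of SUPT6H against those of PLEKHA5, both as unscaled reads per library on log axes, 1 point per library, by line and shRNA. The 27 points follow 1 line (r = 0.997 for log2 CPM), with LNCaP libraries highest and 22Rv1 libraries mostly lowest.

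The knockdown effects of the lines were compared by an interaction term. Downstream 2 of 21 member differences were called, both SUPT6H and both lower than in LNCaP, with differences of -1.60 for LNCaP95 (SE 0.279, adjusted p = 4.04e-05) and -1.36 for 22Rv1 (SE 0.28, adjusted p = 0.00206), where 2.45%, 0.948% and 4.14% of all genes were called for LNCaP95 against LNCaP, 22Rv1 against LNCaP and 22Rv1 against LNCaP95. PLEKHA5 gave -1.54 and -1.38. For CDK9 3′ UTR, CDK13 introns and CCNT1 downstream the effects of the lines were not called different. In the 3′ UTR and in introns 0 member differences were called in edgeR, with 0 and 1 at an unadjusted p under 0.05, and DESeq2 called 0 as well, against 9.58%, 5.12% and 10.7% of all genes in the 3′ UTR and 8.1%, 3.77% and 9.1% in introns.

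The 2 CPSF1 shRNAs were also set against each other within a line. No member was called in edgeR in the 3′ UTR, in introns or downstream, where 0, 0 and 4 had an unadjusted p under 0.05, and none was called in DESeq2. All genes were called at 0.0363%, 0% and 0.0522% in the 3′ UTR for LNCaP, LNCaP95 and 22Rv1, at 0.118%, 0% and 0.154% in introns and at 0.119%, 0.00676% and 0.181% downstream.

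Of 34 further elongation genes, which cover NELF, the 7SK complex, the super elongation complex, the PAF complex, FACT and others, 28, 31 and 30 could be tested downstream in LNCaP, LNCaP95 and 22Rv1. Of these 4, 6 and 4 were called higher and 2, 3 and 2 lower, against 9.52%, 17.6% and 7.25% of all genes higher and 5.2%, 10.1% and 2.77% lower. Their median downstream value was 0.69, 0.46 and 0.87, or 0.49, 0.42 and 0.29 with genes at 0 in all controls set to their lower bound, against all-gene medians of 0.13, 0.22 and 0.19. In 3′ UTRs 2, 0 and 0 were called higher and 1, 4 and 1 lower, of 32, 32 and 31 tested, against 18.3%, 30.5% and 1.47% of all genes called. In introns 3, 1 and 1 were called higher and 3, 6 and 1 lower, of 29 tested in each line, against 14.3%, 23.8% and 4.37% of all genes called.

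PHF3, which binds the polymerase tail, had no downstream read in any of the 9 control libraries and 46, 64 and 52 in the knockdown libraries of LNCaP, LNCaP95 and 22Rv1. With a floor of 3 reads over the control group this is at least 5.84-, 6.12- and 3.46-fold higher. PHF3 introns rose in LNCaP95 (0.95, adjusted p = 8.42e-04) and 22Rv1 (0.79, adjusted p = 0.0391). RTF1, a partner of the PAF complex, had 0, 1 and 0 control reads against 20, 57 and 43, at least 2.54-fold higher in LNCaP and 2.86-fold in 22Rv1. WDR61, a PAF complex subunit, rose downstream, with 2.60 (adjusted p = 6.94e-09), 2.72 (adjusted p = 2.82e-09) and 1.17 (adjusted p = 0.027). LARP7, which holds 7SK RNA and thereby P-TEFb in its inactive form, rose downstream in LNCaP95 (2.73, adjusted p = 5.66e-07) and 22Rv1 (2.05, adjusted p = 3.59e-06) and gave 1.09 in LNCaP (adjusted p = 0.088).
Other members of that list were called lower with each region scaled on its own. Over all genes, 699, 1493 and 398 were called lower downstream in LNCaP, LNCaP95 and 22Rv1. With library sizes summed over the 4 tables these became 141, 241 and 57. Values of the genes below under that scaling are not given here. CDC73, another PAF complex subunit, gave -0.997 (adjusted p = 1.14e-04) and -0.85 (adjusted p = 0.00279) downstream in LNCaP and LNCaP95, and MLLT1, a super elongation complex subunit, -0.77 (adjusted p = 0.00431) in LNCaP95 and -0.65 (adjusted p = 0.00566) in 22Rv1. MLLT1 had no read in its annotated 3′ UTR in any library. Whether its downstream reads mark the usual end of the gene or another transcript was not tested. LEO1 introns fell in LNCaP (-0.72, adjusted p = 0.0101) and LNCaP95 (-0.85, adjusted p = 0.00583) and gave 0.56 in 22Rv1 (adjusted p = 0.243). AFF1 introns fell in LNCaP (-0.37, adjusted p = 0.0386) and LNCaP95 (-0.61, adjusted p = 0.00236). CDK11A gave -0.59 and -0.66 downstream in LNCaP95 and 22Rv1, which is uncertain because CDK11B is a near-identical copy.

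The 5 DNA repair genes known to depend on CDK12, BRCA1, ATR, FANCI, FANCD2 and ATM, gave 0 called higher and 1 lower in LNCaP 3′ UTRs, 2 and 0 in LNCaP95 and 0 and 0 in 22Rv1, against 18.3%, 30.5% and 1.47% of all genes called. In introns 1 was called lower in LNCaP and none in the other lines, against 14.3%, 23.8% and 4.37% of all genes called in LNCaP, LNCaP95 and 22Rv1. ATR, a DNA damage checkpoint kinase, had a lower intron to 3′ UTR ratio in LNCaP (-1.22, adjusted p = 0.0375) and LNCaP95 (-0.998, adjusted p = 0.0455) and gave -0.24 in 22Rv1, against 3.69%, 14.1% and 0.422% of all genes called in the 3 lines. The ATR 3′ UTR held 6, 31 and 26 reads in LNCaP controls and 21, 26 and 8 in LNCaP95 controls. Its mean 3′ UTR level was 5.09 CPM in LNCaP controls, 10.2 with sh1 and 9.58 with sh2. In LNCaP95 it was 3.68, 7.58 and 7.77 CPM in the same order. How much of the lower ratios came from the 3′ UTR was not tested. The ATR downstream to 3′ UTR ratio was lower in the same 2 lines (-1.93, adjusted p = 0.0268, and -2.61, adjusted p = 4.16e-04), against 10.3% and 28% of all genes called. Of the 5 genes 0, 1 and 0 were called higher for that ratio in LNCaP, LNCaP95 and 22Rv1, and 1, 1 and 0 lower. For the intron ratio 0 were called higher, and 1, 1 and 0 lower. In downstream reads 1 was called lower in LNCaP95, where 27.7% of all genes were called.

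Across the 27 libraries the 3′ UTR levels most like those of CDK9, among 8798 genes over 10 CPM, were RBCK1 (r = 0.94) and LARP6 (r = 0.93). CDK13 was most like UNC13B (r = 0.85) and RBM14 (r = 0.84), CCNT1 like RC3H1 (r = 0.80) and SMARCC2 (r = 0.78), CCNT2 like SYNJ2BP (r = 0.81) and ZNF561 (r = 0.80), and CDK12 like HDHD2 (r = 0.81) and RPL39 (r = 0.79). CCNK was most like SNX4 (r = 0.76) and HIGD2A (r = 0.74), SUPT6H like TRAF3IP1 (r = 0.75) and PLEKHN1 (r = 0.72), and SUPT5H like PSMD13 and FAM13B (both r = 0.60). Among the members themselves CDK9 and CDK13 gave r = -0.65, CDK9 and CCNT2 r = 0.51 and CDK9 and CCNT1 r = -0.41. These are descriptions across libraries of 3 lines that share their differences between lines.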

How the data were processed

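PAC-seq libraries of 3 prostate cancer lines, each with CTRL sh, CPSF1 sh1 or CPSF1 sh2 in 3 replicates, were analysed from 4 tables. The deposited tables hold the authors' raw counts of reads for each gene, made by trimming poly(A) tails with DPAC, aligning to GRCh37 with HISAT2 2.1.0 and counting the 3′-most base of each read, by strand, with featureCounts (Subread 2.0.3) in protein-coding genes. 3′ UTRs were extended by 300 bases, introns excluded CDS and UTRs, and downstream regions excluded exons of the same strand. All 27 columns of each table matched a sample.

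Counts as deposited were fitted with edgeR 4.0.16 in R 4.3.3 (TMM factors, quasi-likelihood F-test, 3 controls against 6 CPSF1 shRNA libraries of the same line), for genes with a mean over 2 CPM, and called at a Benjamini-Hochberg adjusted p under 0.05 over all genes tested. Ratios between regions, differences between control lines, line-by-knockdown terms and sh2 against sh1 were fitted likewise. CPM in the text share 1 TMM scaling per table over all 27 libraries, and correlations are Pearson's r of log2 CPM with a prior count of 2. A difference between replicates of a group exceeded sampling noise in every pair (chi-square per degree of freedom 2.71 to 23.3), and p-values measure only the spread between these samples. Intervals and limits for 0 counts cover counting error only. Sequences are GRCh37, compared with blastn 2.17.0, and the 3′ end of CCNT2 is not reported here.

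The members and lists were chosen with earlier results of these data known. Other elongation and repair genes were named where called in the same direction in 2 or more lines in a table or ratio, at most 10 by mean absolute log2 fold change. Alternatives were DESeq2 1.42.0, other scalings and filters, a replicate block, each shRNA alone, leaving out each library, and, chosen after seeing the data, leaving out the SUPT6H downstream region. The scripts were tested on simulated data.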

Additional observations from a re-analysis of the deposited data

Results flagged for a closer look

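The SUPT6H downstream region differed between lines in its response to CPSF1 knockdown by the interaction term of the model. The difference was -1.60 for LNCaP95 minus LNCaP (SE 0.279, adjusted p = 4.04e-05 in edgeR) and -1.36 for 22Rv1 minus LNCaP (SE 0.28, adjusted p = 0.00206). Both were among 21 member differences tested downstream.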

How the results depend on the processing

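CCNT1 downstream kept its direction and its call in LNCaP and LNCaP95 under every alternative that was run. The count of members called in the 3′ UTR, 1 as reported, became 2 without the mean filter, with over 2 CPM required in every library, with library sizes summed over the 4 tables, without TMM factors, with DESeq2, with sh2 alone and with the replicate block, and 0 with sh1 alone. The count in introns (1) became 2 with the filter on every library and with summed sizes, and 0 without TMM factors and with sh1 alone. Downstream (7) it became 4 with sh1 alone and 4 without the SUPT6H region, an alternative chosen after seeing the data. Over all reads (2) it became 1 with the filter on every library, without TMM factors, with either shRNA alone and with the block. The intron ratio (0) gave 1 with the filter on every library, the downstream ratio (4) gave 7 with summed sizes and 2 with sh1 alone, control introns (5) gave 3 with summed sizes and 3 without TMM factors, and sh2 against sh1 downstream (0) gave 1 with summed sizes. With summed sizes SUPT6H downstream turned to 0.19 in LNCaP95 and 0.012 in 22Rv1, and of the members called downstream 6 were higher and 0 lower. The cause was not tested.

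Leaving out 1 library gave 1 to 3 members called in the 3′ UTR, 0 to 2 in introns, 0 to 0 in CDS, 5 to 7 downstream, 1 to 3 over all reads, 0 to 1 for the intron ratio and 2 to 5 for the downstream ratio. It gave 2 to 6 between control lines in the 3′ UTR, 3 to 5 in introns and 4 to 6 downstream, and 2 to 2 line-by-knockdown differences downstream. Same-numbered replicates were not paired by the labels, and their deviations from group means correlated over 0.1 in only 16 of 108 pairs (median 0.0037) against 26 of 216 differently numbered pairs. Of 27 libraries, 7, 9, 8 and 11 correlated best with their own number in the 3′ UTR, intron, CDS and downstream tables. Apart from the counts in 3′ UTRs and over all reads, the replicate block changed no count of calls. CCNK and SUPT5H downstream rest on 8 and 255 reads over all libraries, which limits their precision.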
